A study of Mus musculus with 8 samples.

Results

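The genes described here are 35 mouse genes of glycolysis, lactate handling and the pentose phosphate pathway. They were chosen by name, from a list of transporters and enzymes in pathway order, with earlier results of these data known. All 35 were found among the 45706 genes of the deposited tables. They were measured by RNA sequencing of natural killer (NK) cells, the lymphocytes that kill cells lacking MHC class I. The cells were sorted from BALB/c mice that had been given a subcutaneous tumour of CT26, a murine colorectal carcinoma cell line, carrying a deletion of β2-microglobulin (CT26_β2m-/-). There were 4 libraries titled spNK (splenic NK cells) and 4 titled tuNK (NK cells infiltrating the tumour). Both tissues were digested with enzymes and freed of red cells, and cells were then sorted magnetically and by flow cytometry. Only the tumour cells passed a density gradient before the sort, a difference that cannot be told apart from the tissue. The sources used here do not give the sort markers, the age of the mice, whether spleens and tumours came from the same mice, or whether replicates were separate mice. The p-values thus cover the spread among the libraries, which may be technical. In all 8 samples the label for tissue contradicts the title. Groups and directions follow the title, which is also how the table columns are named.

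Glycolysis splits 1 glucose into a pair of pyruvate molecules in the cytosol. Its upper steps trap and phosphorylate glucose and spend ATP, and its lower steps, from glyceraldehyde-3-phosphate onwards, return ATP and NADH. Lactate dehydrogenase turns pyruvate into lactate and regenerates NAD+, monocarboxylate transporters carry the lactate across the membrane, and pyruvate dehydrogenase instead feeds pyruvate to the mitochondria. The pentose phosphate pathway branches off after the first phosphorylation and yields NADPH and ribose for nucleotides. Many steps can be carried out by several isoenzymes, encoded by separate genes with their own regulation. Activated NK cells are known to raise glycolysis, and so are many carcinoma cells.

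The libraries held 38745733 to 53886933 estimated counts. The groups differed in what other RNA they held. All 10 NK markers and all 32 pan-leukocyte genes were called lower in tuNK: the leukocyte markers summed to 19200 to 24200 CPM (counts scaled to a library total of 1000000) in spNK and 4970 to 6690 CPM in tuNK, and their median level in the tuNK libraries was 23.8 to 31.5% of the spNK mean. All 13 mesenchymal markers were higher in tuNK, at 98.8 to 159 CPM in spNK and 3610 to 5500 CPM in tuNK (highest in tuNK 1). Of these, Col1a2 had a mean of 1770 CPM in tuNK, while Lum, Tagln and Acta2 had means of 1.60, 1.27 and 1.20 CPM. In spNK most of the mesenchymal sum (mean 130 CPM) was Thy1, with a mean of 107 CPM there and 177 CPM in tuNK. The 7 epithelial markers summed to 1.28 to 10.8 CPM in spNK and 47.3 to 63.0 CPM in tuNK. Epcam, Krt8 and Krt19, which define epithelium, went from means of 0.311, 0.122 and 0 CPM in spNK to 0.731, 0.781 and 0.504 CPM in tuNK. Cdh1, another such marker, went the other way, from 1.83 to 0.684 CPM. The other 3 went from means of 1.74 to 29.2 CPM (Krt18), 0 to 8.91 CPM (Krt20) and 0.236 to 11.2 CPM (Cdh17), and 4 of the 7 were called higher. The 8 macrophage and monocyte markers summed to 45.9 to 288 CPM in spNK and 56.0 to 72.8 CPM in tuNK, where Cd14 had a mean of 57.0 CPM, and Csf1r and Adgre1 of 0.0803 and 0.0643 CPM. The 6 erythroid markers went from 154 to 684 CPM in spNK to 0.361 to 1.78 CPM in tuNK. The part of this other RNA in the results on glycolytic genes was not tested. In bulk samples, fewer cells of a type and less RNA per cell cannot be told apart. Because of the drop of leukocyte RNA, values are given under the usual scaling between libraries (TMM), and the counts of calls, and single genes whose direction or call changed, also with the libraries scaled to the 32 leukocyte genes. With that second scaling the median over all genes went from 0.02 to 1.74 on the log2 scale, and its values are called leukocyte-scaled.

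Most genes of the chain rose in tuNK. Of the 35 genes, 34 passed the filter on low counts and 1, Pdk4, did not. By edgeR's quasi-likelihood test (p adjusted over all genes tested by Benjamini-Hochberg, threshold 0.05), 22 of these 34 were higher in tuNK, 7 were lower and 5 were not called. Of all 14006 genes tested, 69.6% were called, 35.6% higher and 34% lower, so that the share of these genes called higher (64.7%) was above the background and the share called lower (20.6%) below it. The median log2 fold change was 1.10, beside 0.02 over all genes. Of the 34 genes, 17 were called higher by at least 2-fold, as were 21.9% of all genes tested. Leukocyte-scaled, 30 of the 34 were higher (88.2%, background 78.8%), 2 were lower (5.88%, background 6.18%) and the median was 2.81, beside 1.74 over all genes. Since that scaling raises the log2 fold changes of all genes, the 22 genes that had been higher remained higher by construction. Their leukocyte-scaled values ran from 1.99 (Pdha1) to 6.49 (Eno2). Without spNK 3 and tuNK 1, the libraries with the most macrophage and erythroid and the most mesenchymal markers of their groups, 22 were higher and 6 lower.

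**Figure D1:**
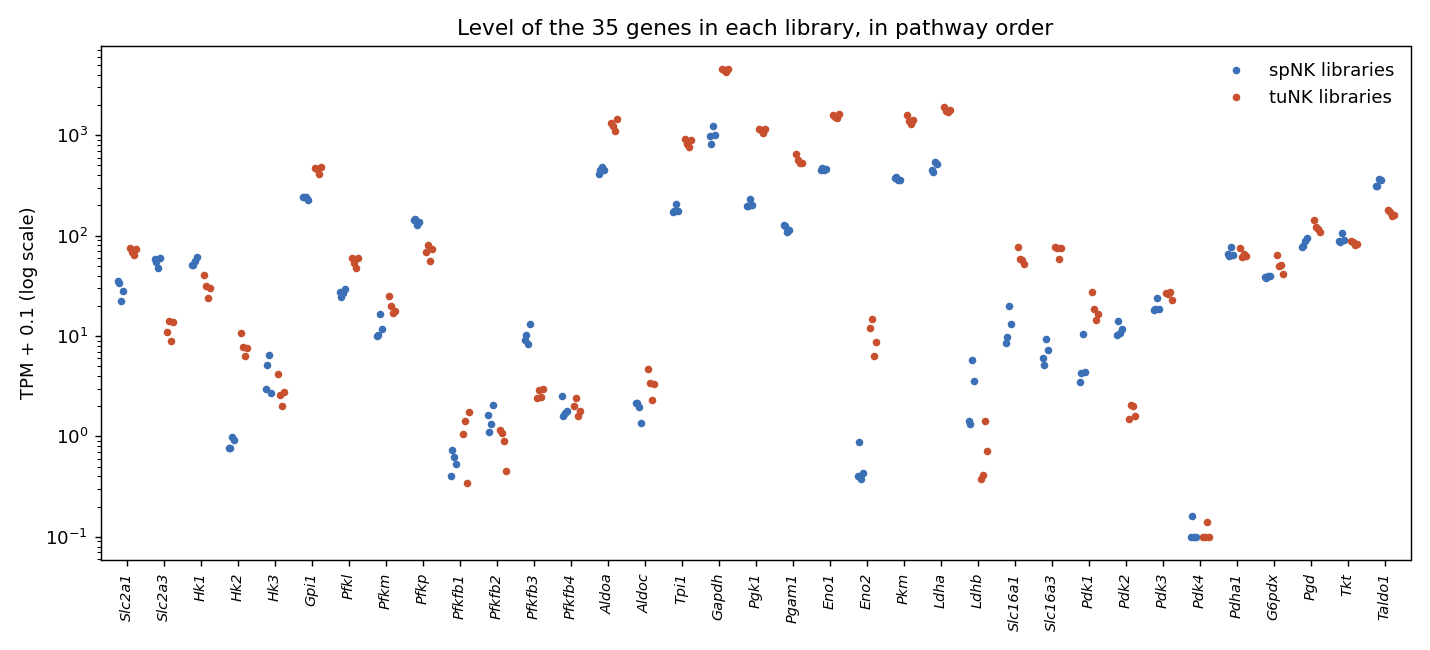
TPM (length-corrected transcript level, scaled to 1000000 per library) plus 0.1 of the 35 genes on a log axis, with 1 point per library (4 spNK, 4 tuNK), in pathway order from glucose uptake to the pentose phosphate pathway. The genes from Aldoa to Ldha that carry most transcripts lie well above the spNK libraries in tuNK (Gapdh at 823 to 1238 TPM in spNK and 4273 to 4542 TPM in tuNK), whereas Slc2a3, Pfkfb3, Pdk2 and Taldo1 lie below them.

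**Figure D2:**
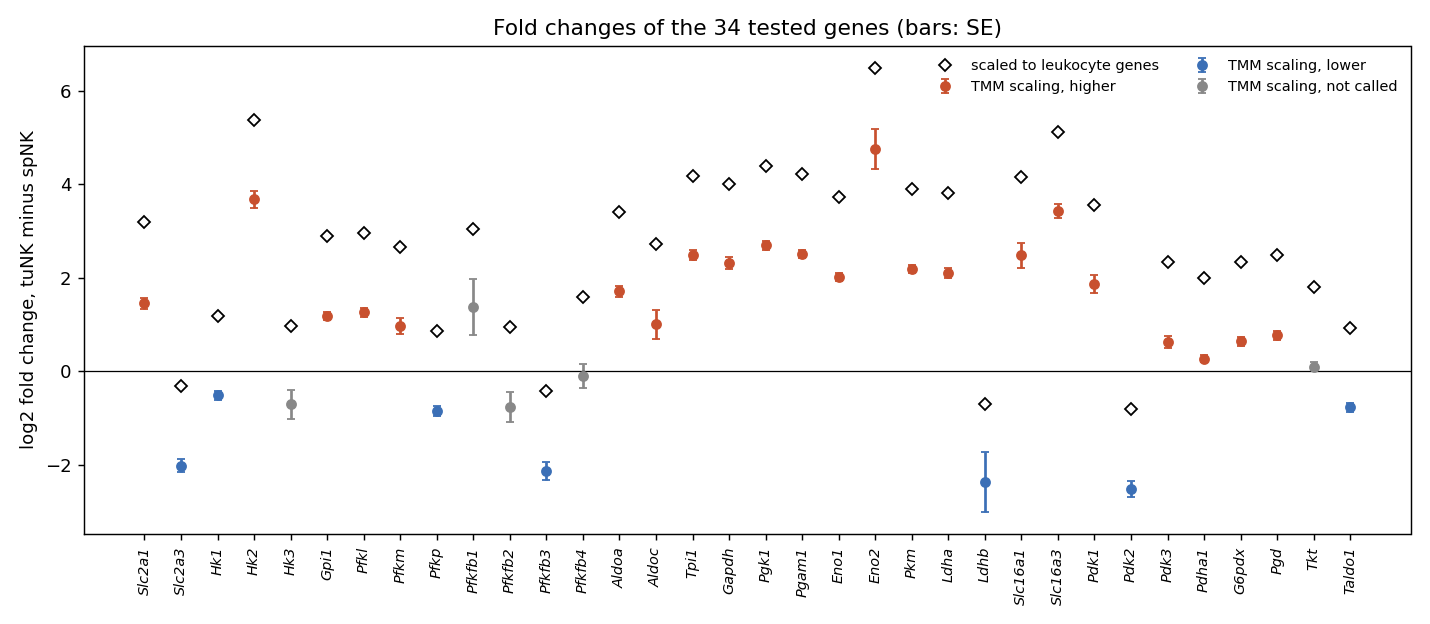
Log2 fold change (tuNK minus spNK) of the 34 tested genes with its standard error under TMM scaling (filled, coloured by call), and the leukocyte-scaled value (open diamonds). With TMM scaling 22 genes are higher, 7 lower and 5 not called, and nearly all leukocyte-scaled values lie above 0, the exceptions being Slc2a3, Pfkfb3, Ldhb and Pdk2.

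Measured in TPM, glucose uptake changed in its makeup more than in its sum. Slc2a1 encodes GLUT1, a glucose transporter of most growing cells, and Slc2a3 encodes GLUT3, a transporter of high affinity found in neurons and leukocytes. Slc2a1 (chromosome 4, 119108711 to 119137983) stood at 35.3, 33.5, 22.4 and 27.7 TPM in spNK 1 to 4 and at 74.7, 68.0, 63.5 and 74.2 TPM in tuNK 1 to 4. Slc2a3 (chromosome 6, 122727809 to 122801640) went the other way, from 57.8, 54.3, 47.5 and 60.2 TPM to 10.8, 14.1, 8.89 and 13.8 TPM. In neither gene did the groups overlap. The log2 fold change was 1.46 ± 0.12 (standard error) for Slc2a1 and -2.02 ± 0.14 for Slc2a3, with adjusted p of 1.17e-06 and 6.01e-07 in the edgeR test. The summed level of both was 84.7 ± 10.1 TPM in spNK and 82.0 ± 6.85 TPM in tuNK (SD, n = 4 each). Slc2a1 thus made up 31.5 to 38.2% of the pair in spNK and 82.8 to 87.7% in tuNK. Slc2a3 was 1 of the 2 genes that were also lower leukocyte-scaled (-0.32, adjusted p = 0.0316 by edgeR), a call that was lost without spNK 3 and tuNK 1 (-0.27, adjusted p = 0.116).

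A share of this kind compares genes within a library and does not change with the scaling between libraries. It was computed from TPM, which puts genes of different length on one scale, for the 9 steps with more than 1 of the 35 genes. It gave 19 shares after 1 share of each pair was left out. Shares of 1 step sum to 100% and are not independent. In 14 of the 19 (73.7%) the groups did not overlap, near the 67.1% of all genes tested whose TMM-scaled CPM did not overlap between groups. Each of the 14 had a two-sided exact permutation p of 0.0286, the smallest that 4 against 4 libraries allow, and an adjusted p of 0.0388 over the 19 shares. The shares cover all RNA in a library, so they also hold the transcripts of any other cells in the sort.

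**Figure D3:**
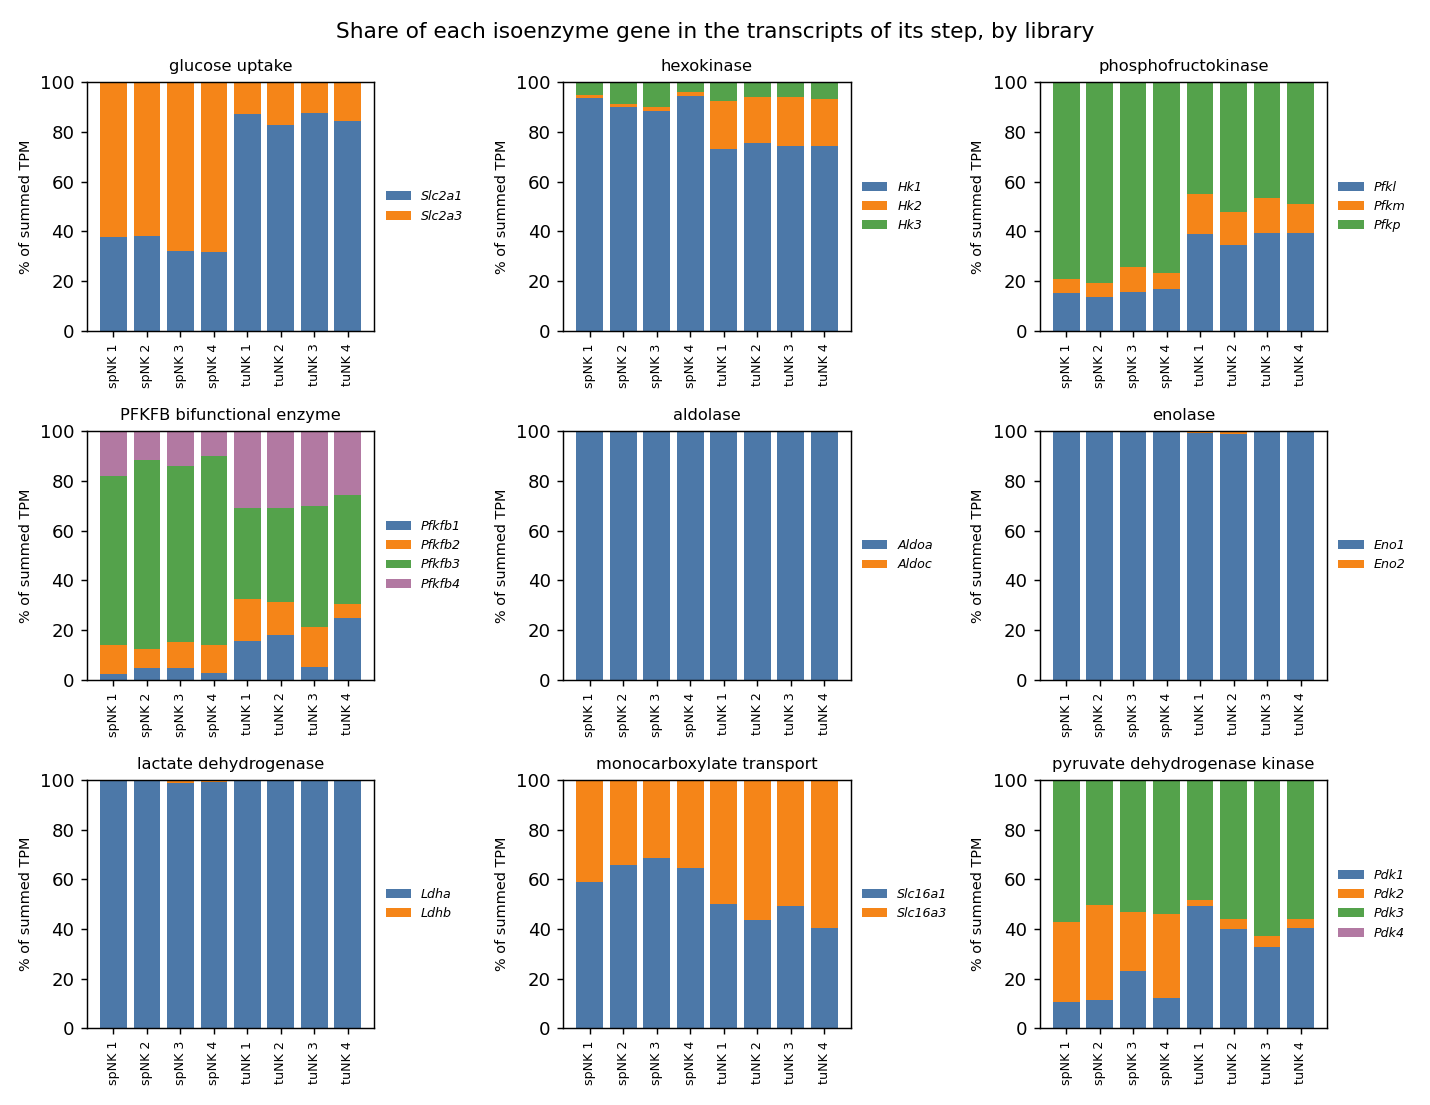
Share of each gene in the summed TPM of its step, in percent, for each of the 8 libraries (1 stacked bar per library, 9 steps). Slc2a1 goes from 31.5 to 38.2% in spNK to 82.8 to 87.7% in tuNK, Pfkp falls below 53% in tuNK and Pdk2 nearly disappears, whereas Aldoa, Eno1 and Ldha hold over 98% of the transcripts of those of the 35 genes that act at their step.

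Hexokinase phosphorylates glucose and so traps it in the cell. Hk1 encodes the form of most tissues, Hk2 the inducible form that binds mitochondria, and Hk3 a form of myeloid cells. Hk1 (chromosome 10, 62268855 to 62379908) was the most abundant in both groups, at 51.1, 51.5, 56.4 and 60.8 TPM in spNK and 40.6, 31.4, 23.97 and 29.7 TPM in tuNK. It was lower in tuNK by TMM scaling (-0.51 ± 0.10, adjusted p = 7.74e-04 by edgeR) but higher leukocyte-scaled (1.19). Hk2 (chromosome 6, 82725025 to 82774454) was at 0.666, 0.661, 0.883 and 0.813 TPM in spNK and at 10.7, 7.66, 6.30 and 7.49 TPM in tuNK, with every tuNK library above every spNK library. It rose 12.8-fold (3.68 ± 0.18, adjusted p = 4e-08 by edgeR). Hk3 lay between 2.62 and 6.39 TPM in spNK and between 1.89 and 4.09 TPM in tuNK, the groups overlapped and it was not called (-0.70 ± 0.31, adjusted p = 0.0624 by edgeR). It was called lower by DESeq2 and without spNK 1 or spNK 4 (-0.89 in both cases) but higher leukocyte-scaled (0.96). Hk2 made up 1.16 to 1.39% of hexokinase transcripts in spNK and 18.4 to 19.6% in tuNK, and Hk1 fell from 88.6 to 94.7% to 73.3 to 75.6%. The summed level of the step was 59.9 ± 4.75 TPM in spNK and 42.2 ± 9.66 TPM in tuNK.

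Gpi1, whose enzyme turns glucose-6-phosphate into fructose-6-phosphate, was at 242, 242, 242 and 226 TPM in spNK and 467, 465, 411 and 486 TPM in tuNK (chromosome 7, 34201330 to 34230336). It rose 2.28-fold (1.19 ± 0.09, adjusted p = 7.42e-07 by edgeR).

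Phosphofructokinase is the committed step of glycolysis and works as a tetramer of subunits from Pfkl (the liver form), Pfkm (muscle) and Pfkp (platelet). Pfkp (chromosome 13, 6579768 to 6648777) was the main form in spNK, at 142, 146, 127 and 137 TPM, and stood at 68.9, 79.9, 56.4 and 73.8 TPM in tuNK. Pfkl (chromosome 10, 77986947 to 78010083) went from 27.6, 24.6, 26.8 and 29.7 TPM to 59.4, 52.7, 48.0 and 59.5 TPM. Neither gene's groups overlapped. Pfkm was at 9.86 to 16.6 TPM in spNK and 17.02 to 25.1 TPM in tuNK. The log2 fold changes were -0.85 ± 0.11 for Pfkp (adjusted p = 4.18e-05), 1.26 ± 0.09 for Pfkl (adjusted p = 7.33e-07) and 0.97 ± 0.17 for Pfkm (adjusted p = 3.85e-04), all by edgeR. Pfkp held 74.5 to 80.8% of the step in spNK and 44.9 to 52.4% in tuNK, while Pfkl went from 13.6 to 16.6% to 34.5 to 39.5% and Pfkm from 5.48 to 9.77% to 11.8 to 16.4%. Leukocyte-scaled, Pfkp was higher (0.86), and the shares are not touched by that choice. The sum over the subunits was 177 ± 4.68 TPM in spNK and 145 ± 15.5 TPM in tuNK.

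The PFKFB enzymes make and degrade fructose-2,6-bisphosphate, the strongest activator of phosphofructokinase. Pfkfb3, the form with the highest kinase activity, was the main one in spNK, at 9.06, 10.1, 8.22 and 13.2 TPM, and stood at 2.29, 2.80, 2.39 and 2.88 TPM in tuNK. Its log2 fold change was -2.13 ± 0.20 (adjusted p = 4.71e-06 by edgeR; chromosome 2, 11471433 to 11554077). Leukocyte-scaled, its change was -0.43 and not called (adjusted p = 0.0635 by edgeR). The other 3 genes were low and were not called. Pfkfb1 ranged from 0.308 to 0.634 TPM in spNK and 0.246 to 1.63 TPM in tuNK (log2 fold change 1.37 ± 0.60), Pfkfb2 from 0.997 to 1.97 TPM and 0.355 to 1.06 TPM (-0.77 ± 0.32), and Pfkfb4 from 1.51 to 2.42 TPM and 1.49 to 2.31 TPM (-0.10 ± 0.25). The adjusted p of Pfkfb1 and Pfkfb2 by edgeR were 0.0606 and 0.0504, and both were called by DESeq2 (adjusted p = 0.0445 and 0.0267). Leukocyte-scaled, Pfkfb1 (3.05), Pfkfb2 (0.95) and Pfkfb4 (1.60) were called higher. Pfkfb3 made up 67.9 to 76.3% of the step in spNK and 36.8 to 48.5% in tuNK, and Pfkfb4 9.86 to 18.1% and 25.8 to 31.0%.

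From aldolase to pyruvate kinase the main gene of every step rose, by 3.28-fold to 6.48-fold. Aldolase splits fructose-1,6-bisphosphate, and its main gene Aldoa (chromosome 7, 126795234 to 126800751) went from 411, 454, 483 and 448 TPM in spNK to 1311, 1231, 1107 and 1440 TPM in tuNK, a log2 fold change of 1.71 ± 0.11. Tpi1, for triosephosphate isomerase, which interconverts both products (chromosome 6, 124810586 to 124814296), went from 171, 175, 206 and 174 TPM to 914, 826, 772 and 899 TPM (2.49 ± 0.10). Gapdh, for glyceraldehyde-3-phosphate dehydrogenase, which makes NADH (chromosome 6, 125161715 to 125166467), went from 976, 823, 1238 and 1014 TPM to 4526, 4428, 4273 and 4542 TPM (2.32 ± 0.12). In each of these 3 genes the lowest tuNK library was above the highest spNK library by more than 2-fold.

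Pgk1, for phosphoglycerate kinase, the first step that makes ATP (chromosome X, 106187100 to 106203699), went from 199, 196, 231 and 200 TPM to 1157, 1126, 1060 and 1163 TPM (2.70 ± 0.10). Pgam1, for phosphoglycerate mutase (chromosome 19, 41911923 to 41918660), went from 128, 124, 109 and 115 TPM to 656, 570, 527 and 532 TPM (2.51 ± 0.08). Eno1, for the main enolase (chromosome 4, 150236721 to 150248879), went from 455, 471, 455 and 460 TPM to 1590, 1516, 1477 and 1620 TPM (2.02 ± 0.09). None of the groups overlapped. Pkm, for the pyruvate kinase of most tissues and the second step that makes ATP (chromosome 9, 59656368 to 59679375), went from 375, 380, 355 and 355 TPM to 1578, 1381, 1293 and 1408 TPM (2.19 ± 0.08). Its M1 and M2 splice forms are not separated in a table of genes. The adjusted p of these 7 genes by edgeR ran from 3.85e-09 for Pgam1 to 2.16e-07 for Aldoa. Pgk1 had the largest rise of the 7, 6.48-fold, and a log2 fold change above that of 89.2% of all genes tested.

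Several of these genes share sequence with near-identical copies in the genome, between which reads can be split. Of all stretches of 60 bases (the read length) in the transcripts of Pgk1, 53.4% also occur in transcripts of another gene, and the shares were 35.7% for Pgam1, 24.7% for Eno1, 23.8% for Gapdh and 22.3% for Pkm. The levels of these 5 genes are therefore uncertain, by an amount that was not measured. The copy of Pgk1 that shares most, Pgk1-rs7, was listed at a mean of 1.32 TPM in spNK and 8.86 TPM in tuNK, and that of Pgam1, Pgam1-ps2, at 3.26 and 21.5 TPM. Eno1b, a copy of Eno1, was listed at 136.7 to 143.2 TPM in spNK and 435.5 to 485.1 TPM in tuNK and moved like Eno1 (1.98 ± 0.09). In contrast Hk1, Hk2, Slc2a1, Slc16a1, Slc16a3, Pdk1, Pdk2, Pfkl and Pfkp shared no stretch of that length with any other gene.

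The minor isoenzymes of these steps stayed minor. Aldoc, an aldolase known from the brain, was at 1.27 to 2.08 TPM in spNK and 2.19 to 4.59 TPM in tuNK, a log2 fold change of 1.01 ± 0.31 (adjusted p = 0.0131 by edgeR) that was not called without spNK 3 and tuNK 1 (0.89, adjusted p = 0.0571). Aldoa held over 99% of aldolase transcripts in every library. Eno2, the neuronal enolase (chromosome 6, 124760053 to 124769673), was at 0.300, 0.777, 0.280 and 0.336 TPM in spNK and 11.9, 14.7, 6.16 and 8.69 TPM in tuNK. Its groups lay far apart, with a log2 fold change of 4.76 ± 0.43 (adjusted p = 4.53e-06 by edgeR), the highest among the 34 genes, and of 5.36 without spNK 2. It made up 0.0615 to 0.165% of the Eno1 and Eno2 transcripts in spNK and 0.415 to 0.957% in tuNK. With Eno1b and Eno3, enolase genes outside the 35, also counted, Eno1 made up 74.1 to 75.9% of enolase transcripts in spNK and 70.7 to 72.7% in tuNK. Reads can be split between Eno1 and its copy Eno1b, so this share is uncertain by an amount that was not measured.

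Lactate dehydrogenase is built from the subunits LDHA, the form of muscle and of glycolytic cells, and LDHB, the form of heart. Ldha (chromosome 7, 46841475 to 46855627) went from 452, 434, 547 and 521 TPM in spNK to 1897, 1738, 1706 and 1792 TPM in tuNK, a 4.33-fold rise (2.11 ± 0.11, adjusted p = 4.94e-08 by edgeR). Ldhb (chromosome 6, 142490249 to 142507957) was barely present, at 1.34, 1.22, 5.63 and 3.44 TPM in spNK and 0.274, 0.315, 1.34 and 0.610 TPM in tuNK. By TPM the groups overlapped, with tuNK 3 above spNK 2, and by TMM-scaled CPM they did not. It was called lower (-2.37 ± 0.64, adjusted p = 0.00634 by edgeR), with -1.77 without spNK 3, which held the most, and with no call without spNK 3 and tuNK 1 (-1.56, adjusted p = 0.0539) or leukocyte-scaled (-0.70). Ldha held 98.98 to 99.72% of the step in spNK and 99.92 to 99.99% in tuNK.

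Lactate leaves or enters the cell through MCT1, encoded by Slc16a1, and MCT4, encoded by Slc16a3, the exporter of highly glycolytic cells. Slc16a1 (chromosome 3, 104638668 to 104658462) went from 8.52, 9.70, 20.0 and 13.0 TPM in spNK to 76.9, 58.7, 57.0 and 51.9 TPM in tuNK (2.48 ± 0.26, adjusted p = 2.26e-05 by edgeR). Slc16a3 (chromosome 11, 120948480 to 120960868) went from 5.97, 5.03, 9.21 and 7.13 TPM to 77.3, 75.3, 58.7 and 76.0 TPM, a 10.9-fold rise (3.44 ± 0.15, adjusted p = 2.19e-08 by edgeR). The groups of both genes were apart, and spNK 3 was the highest spNK library in both. Slc16a3 made up 31.5 to 41.2% of the pair in spNK and 50.1 to 59.4% in tuNK. The summed TPM of the pair was 6.77 times as high in tuNK as in spNK, the highest ratio of the steps.

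As examples of genes that rose (Ldha, Pgk1, Slc16a3 and Tpi1) and, for the same step as Ldha, of one that did not (Ldhb), chosen after their values were seen, the 160 bases before the annotated start of each are shown, from the promoter sequences of RefSeq on GRCm38.p6. They are written 5′ to 3′ on the strand of the gene. The capitals mark ACGTG and GCGTG on either strand, the core letters of the sites bound by the hypoxia-inducible factors. The E-box CACGTG, bound by MYC and related factors, contains ACGTG and overlaps it.
Ldha, chr7:46845644-46845803, plus strand: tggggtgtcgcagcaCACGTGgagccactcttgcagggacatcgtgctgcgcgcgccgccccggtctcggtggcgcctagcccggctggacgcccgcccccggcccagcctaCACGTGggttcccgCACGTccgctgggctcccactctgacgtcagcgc
Ldhb, chr6:142507958-142508117, minus strand: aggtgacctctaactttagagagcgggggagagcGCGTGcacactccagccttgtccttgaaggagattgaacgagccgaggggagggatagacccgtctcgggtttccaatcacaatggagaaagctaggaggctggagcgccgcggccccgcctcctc
Pgk1, chrX:106186940-106187099, plus strand: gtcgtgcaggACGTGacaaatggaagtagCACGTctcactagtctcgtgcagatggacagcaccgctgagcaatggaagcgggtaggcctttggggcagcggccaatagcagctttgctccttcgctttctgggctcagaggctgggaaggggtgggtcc
Slc16a3, chr11:120948907-120949066, plus strand: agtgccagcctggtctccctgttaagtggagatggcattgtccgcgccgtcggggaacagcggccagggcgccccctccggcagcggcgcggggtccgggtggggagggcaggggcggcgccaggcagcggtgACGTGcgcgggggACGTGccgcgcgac
Tpi1, chr6:124814159-124814318, minus strand: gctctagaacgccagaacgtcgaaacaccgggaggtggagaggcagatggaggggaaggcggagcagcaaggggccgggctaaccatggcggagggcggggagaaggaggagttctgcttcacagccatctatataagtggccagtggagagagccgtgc

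Ldha held ACGTG 5 times in these 160 bases, counted on both strands, in which CACGTG occurs 2 times. Pgk1 and Slc16a3 held it 2 times each, Ldhb held GCGTG 1 time, and Tpi1 held neither although it rose by 2.49. Genes that fell held these letters too: within 250 bases, 1 of the Pdk2 sites held ACGTG 2 times, and 1 of the Pfkfb3 sites held ACGTG 2 times and GCGTG 1 time, with CACGTG 1 time in each. In both, the 2 counts of ACGTG are the 2 strands of that 1 CACGTG. Promoter sequences were found for 34 of the 35 genes (54 start sites). Within the 250 bases before a start, ACGTG or GCGTG was present at 75.9% of these 54 sites, beside 38.6% of the 32851 sites of all genes and 54.6% of the 12597 sites of genes tested here. CACGTG was present at 11.1% of the sites, beside 6.02% and 8.02%. The sites of the tested genes held a median of 15 CG pairs and those of the 35 genes 13.5. For 43 of the 54 sites the bases after the start were also found in a GENCODE M21 transcript of the gene, and the Ldha site shown was not among them. The other Ldha site, which was, held GCGTG 1 time in its 250 bases and no ACGTG. The Pdk2 site that held ACGTG was also not among the 43. The other Pdk2 site, which was, held neither ACGTG nor GCGTG. The stretches shown for Ldha and Slc16a3, and most of that for Tpi1, lie inside the gene as GENCODE M21 annotates it. They can thus be transcribed from starts further upstream. A match of letters is a description only.

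Pyruvate dehydrogenase kinases shut the pyruvate dehydrogenase complex and so keep pyruvate out of the mitochondria. Pdk1 went from 3.36, 4.22, 10.3 and 4.30 TPM in spNK to 27.2, 18.5, 14.3 and 16.5 TPM in tuNK (1.87 ± 0.20, adjusted p = 1.13e-05 by edgeR, chromosome 2, 71873224 to 71903858). Pdk2 (chromosome 11, 95026258 to 95041354) went from 10.2, 14.1, 10.7 and 11.7 TPM to 1.39, 1.96, 1.93 and 1.48 TPM. It fell by 2.52 ± 0.18 (adjusted p = 5.52e-07 by edgeR) and was the second gene that was also lower leukocyte-scaled (-0.81, adjusted p = 0.00301 by edgeR). Pdk3 was the main kinase gene in spNK, at 18.2 to 23.9 TPM, and lay at 23.0 to 27.5 TPM in tuNK (0.63 ± 0.12, adjusted p = 8.72e-04 by edgeR). Pdk4, a form induced by fasting, had 0.0594 TPM in spNK 2, 0.0406 TPM in tuNK 3 and 0 in the other 6 libraries. Pdk1 made up 10.6 to 23.0% of the step in spNK and 32.7 to 49.3% in tuNK, and Pdk2 23.8 to 38.3% and 2.53 to 4.41%, whereas the share of Pdk3 overlapped between groups (50.03 to 57.3% and 48.2 to 62.8%, exact permutation p = 0.543).

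Pdha1, for the catalytic subunit of pyruvate dehydrogenase, was at 62.5 to 76.4 TPM in spNK and 61.3 to 74.8 TPM in tuNK. It was called higher from the counts (0.27 ± 0.07, adjusted p = 0.00706 by edgeR), but not with library size alone (0.10), and on log2 TPM its difference was -0.01.

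The pentose phosphate genes moved less than the lower glycolytic genes, and in both directions. The oxidative branch makes NADPH. Its first enzyme gene G6pdx (chromosome X, 74409483 to 74429194) went from 38.8, 38.2, 39.1 and 39.5 TPM to 64.2, 50.3, 51.5 and 41.1 TPM (0.64 ± 0.09, adjusted p = 6.79e-05 by edgeR). Pgd, for 6-phosphogluconate dehydrogenase (chromosome 4, 149149991 to 149166771), went from 77.9, 79.3, 87.6 and 94.8 TPM to 143, 122, 116 and 110 TPM (0.77 ± 0.09, adjusted p = 1.43e-05 by edgeR). Every tuNK library was above the spNK libraries in both, and tuNK 1 was the highest. Transketolase and transaldolase form the branch that joins pentoses to glycolysis. Tkt was at 85.9 to 107 TPM in spNK and 80.3 to 88.8 TPM in tuNK and was not called (0.10 ± 0.09, adjusted p = 0.334 by edgeR), although it was called higher without spNK 3 and tuNK 1 (0.22, adjusted p = 0.0177) and leukocyte-scaled (1.81). Taldo1 (chromosome 7, 141392199 to 141402968) went from 314, 312, 368 and 357 TPM to 179, 171, 158 and 160 TPM (-0.77 ± 0.09, adjusted p = 1.49e-05 by edgeR), and leukocyte-scaled it was higher (0.93).

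Summed over all 35 genes, the level was 4383, 4271, 4942 and 4566 TPM in spNK 1 to 4 and 15170, 14260, 13500 and 14800 TPM in tuNK 1 to 4, or 0.427 to 0.494% and 1.35 to 1.52% of all transcripts. In TPM, the sum over the 4 pentose phosphate genes fell from 515 to 602 in spNK to 393 to 475 in tuNK. On that scale Taldo1 carried the drop: without it the sum was 203 to 234 TPM in spNK and 233 to 296 TPM in tuNK. With TMM scaling, Taldo1 alone of the 4 was called lower. Leukocyte-scaled, G6pdx (2.35), Pgd (2.48), Tkt (1.81) and Taldo1 (0.93) were all called higher, so the drop depends on the scaling between libraries. By step, the ratio of mean TPM (tuNK over spNK) was 0.969 for glucose uptake, 0.705 for hexokinase and 0.816 for phosphofructokinase. It was 1.92 for glucose-6-phosphate isomerase, 2.83 for aldolase, and between 3.39 and 5.46 for each step from triosephosphate isomerase to lactate dehydrogenase. These ratios depend on the scaling between libraries, and sums by step were made from TPM only. Leukocyte-scaled, Slc2a1 (3.19), Hk1 (1.19), Hk2 (5.38), Hk3 (0.96), Pfkl (2.97), Pfkm (2.66) and Pfkp (0.86) were called higher, and Slc2a3 (-0.32) lower. Gapdh ranked 140 to 177 among all genes by TPM in the spNK libraries and 38 to 49 in the tuNK libraries, and Ldha 233 to 302 and 107 to 115.

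**Figure D4:**
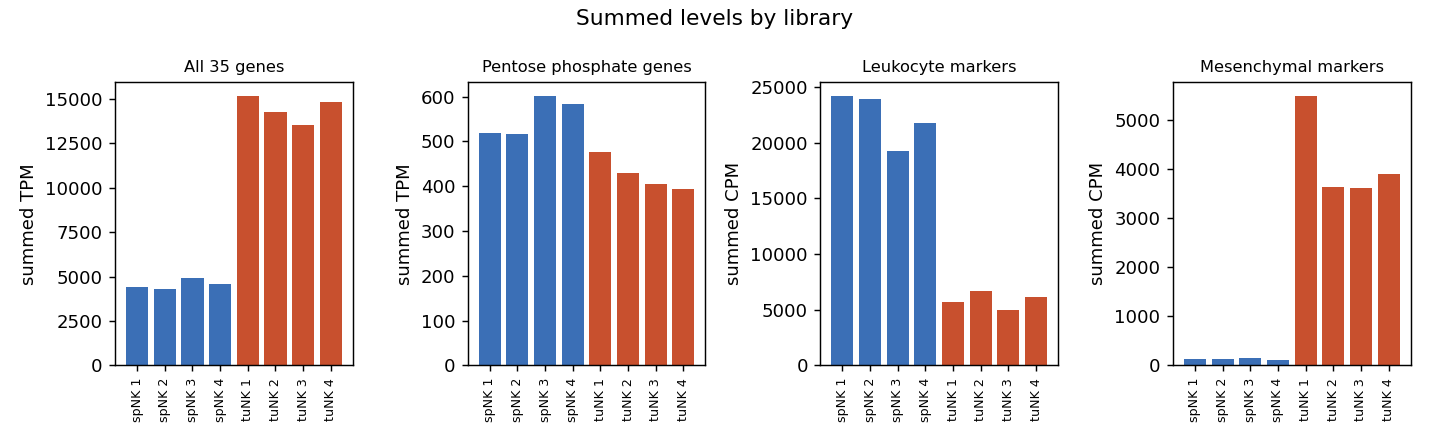
Summed level by library of the 35 genes (TPM), of the 4 pentose phosphate genes (TPM), of the 32 leukocyte markers (CPM) and of the 13 mesenchymal markers (CPM), 1 bar per library. The 35 genes stand at 4271 to 4942 TPM in spNK and 13500 to 15170 TPM in tuNK, while leukocyte markers are lower and mesenchymal markers higher in every tuNK library.

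Among the other genes of these pathways, higher and lower calls were equally frequent. Of 46 further genes of transport, glycolysis, pyruvate oxidation and the pentose phosphate pathway, 29 were tested. Of these, 10 were higher, 10 were lower and 9 were not called (34.5% in each direction), with a median log2 fold change of -0.02, beside 35.6% higher, 34% lower and 0.02 over all genes. Leukocyte-scaled, 22 were higher and 2 lower. Eno3, the enolase of muscle, went from 10.6 to 15.5 TPM in spNK to 119 to 153.5 TPM in tuNK (3.69 ± 0.17). Adpgk, an ADP-dependent glucokinase, rose by 1.27, and Bsg, for basigin, the chaperone of MCT1 and MCT4, by 0.87. Emb, for embigin, another such chaperone, was lower (-0.99), but higher leukocyte-scaled (0.69). In the pentose phosphate pathway Pgls (lactonase, 0.66) and Prps1 (0.83) were higher, and Rpia (-0.75), Rpe (-0.28), Rbks (-1.18) and H6pd (-0.25) lower, while Prps2 was not called (-0.18). Leukocyte-scaled, Rpia (0.95), Rpe (1.44), H6pd (1.47) and Prps2 (1.54) were called higher, and Rbks stood at 0.51 without a call. Of the pyruvate carrier and dehydrogenase genes, Mpc1 (0.48), Mpc2 (0.26), Dlat (0.61) and Pdp1 (0.42) were higher, and Pdhb (0.10) and Dld (0.07) were not called, though both were called higher leukocyte-scaled (1.82 and 1.78). The call of Mpc2 was lost without spNK 1, 2 or 4 or tuNK 3 or 4 (0.21 to 0.26), that of Pdp1 without spNK 2 or 3 or tuNK 1 (0.31 to 0.37), and that of Rpe without spNK 4 (-0.23). On log2(TPM + 1) the calls of Mpc1 (0.20), Mpc2 (0.08), Dlat (0.39) and Pdp1 (0.27) were all lost, as they were against a fold of 1.5. With library size alone those of Mpc2 (0.09) and Pdp1 (0.26) were lost.

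Pklr, the pyruvate kinase of liver and red cells, was at 10.1, 21.9, 36.6 and 20.9 TPM in spNK and had 0 counts in every tuNK library, at least 719-fold lower in CPM against a floor of 3 counts per library. Bpgm, whose enzyme makes the 2,3-bisphosphoglycerate of red cells, went from 17.7 to 25.1 TPM to 4.33 to 6.81 TPM (-1.63 ± 0.11; leukocyte-scaled 0.08, not called). Both changed beside the erythroid markers, which stood at 154 to 684 CPM in spNK and 0.361 to 1.78 CPM in tuNK; the part of those cells in these values was not tested.

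Of 19 regulators of the pathway, 18 were tested, 8 were higher (44.4%), 6 were lower (33.3%) and 4 were not called, near the shares over all genes (35.6% and 34%). Leukocyte-scaled, 16 were higher and 0 lower. Without spNK 1, tuNK 1 or tuNK 2, 5 were higher with TMM scaling. Hif1a, for the oxygen-regulated subunit of the hypoxia-inducible factor, went from 13.7 to 17.9 TPM to 26.6 to 33.3 TPM (1.25 ± 0.10, adjusted p = 1.51e-06 by edgeR). Its partner gene Arnt (-0.65) and Vhl (-0.69), whose product marks HIF for degradation, were lower, as was Egln2 (-0.31), but leukocyte-scaled these 3 were higher (1.07, 1.03 and 1.41). Txnip, which restrains glucose uptake, went from 242 to 317 TPM to 67.2 to 111 TPM (-1.39 ± 0.14; leukocyte-scaled 0.31, called higher). Tigar, a fructose bisphosphatase that favours the pentose phosphate pathway, was higher (1.02), and so were Prkaa1 (0.51) and Trp53 (0.45). Myc was called higher (0.59 ± 0.20, adjusted p = 0.0209 by edgeR) although its groups overlapped (26.3 to 35.3 and 26.7 to 60.9 TPM), and the call was lost without spNK 1, tuNK 1 or tuNK 2 and with the replicate number as a block (adjusted p = 0.0799). The call of Myc was also lost with library size alone (0.43), on log2(TPM + 1) (0.32) and against a fold of 1.5. Egln1 and Keap1 were called higher by 0.21 each, which turned on log2(TPM + 1) (-0.04 and -0.03) and was lost when several of the single libraries were left out (0.16 to 0.22). The values of Hif1an (-0.25), Rptor (-0.12) and Nfe2l2 (-0.07) did not pass the test with TMM scaling and were called higher leukocyte-scaled (1.47, 1.61 and 1.65).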

How the data were processed

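RNA of 4 spNK and 4 tuNK libraries was sequenced as pairs of 60 nt reads, per the labels. The authors used FastQC 0.11.9, STAR and Salmon with GRCm38 (mm10), per the submitters' processing notes; the sources used here do not give the annotation, strand setting or other versions. The authors deposited the estimated counts that Salmon gave per gene, without normalisation, and TPM, scaled for length by the authors' tools, whose columns sum to 1000000. Of the count values, 7.9 to 8.82% per library were not whole and all were rounded.

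Genes were filtered with filterByExpr (14006 kept), scaled with TMM and tested with edgeR 4.0.16 (quasi-likelihood, robust) in R 4.3.3, with Benjamini-Hochberg adjustment over all genes. Standard errors were derived from the log2 fold change and the F statistic. TPM values and shares are as deposited, CPM values of markers use library totals without TMM factors, and log2 fold changes come from the counts. TPM and TMM differ in scale: the median difference over all genes was -0.14 on log2(TPM + 1) and 0.02 with TMM. Shares of isoenzymes and marker sums were compared with two-sided exact permutation tests over 70 assignments. Marker sums gave an exact permutation p = 0.0286 in 10 of 11 lists (adjusted p = 0.0315), the exception being macrophage markers (p = 0.829, -0.37 on the log2 scale). Single macrophage markers went in both directions. The other lists were NK, leukocyte, mesenchymal, epithelial, B cell, T cell, erythroid, platelet, endothelial and neutrophil. Their log2 differences, in that order, were -1.87, -1.92, 4.99, 3.64, -3.01, -1.69, -7.56, -5.90, -0.85 and -5.79. Nearly all of the endothelial sum was Pecam1, whose mean fell from 87.2 to 48.1 CPM. Kdr (1.07 to 0.525 CPM) and Emcn (0.138 to 0.0536 CPM) were also lower, whereas Cdh5 rose from 0.0725 to 0.455 CPM. Averaged over the 4 endothelial genes the log2 difference was -0.24, with 1 gene called lower and 0 higher.

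All 35 genes are named, and of the other lists those with at least 10 TPM in either group. The genes and lists were chosen with earlier results of these data known. One listed symbol (Arhgap45) was matched through the reference. Positions are from GENCODE M21 and cover the annotated gene. Alternatives used other scalings, filters and offsets, DESeq2 1.42.0, limma 3.58.1 (voom or trend), a test against a fold of 1.5, a replicate block and fewer libraries.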

Additional observations from a re-analysis of the deposited data

Results flagged for a closer look

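In 16 of 108 groups of 4 values (levels and shares of the genes in each group), 1 library lay far from the other 3 by Dixon's criterion, which chance meets in about 1 in 20 groups. Of the 16, 4 are levels and shares of Pdk4, which is at 0 in the other 3 libraries and so meets the criterion by construction, which leaves 12 of 104. In spNK 3 these were the highest values of Tpi1 (206 TPM), Pgk1 (231 TPM), Pdk1 (10.3 TPM, and 23.0% of its step), Pdk3 (23.9 TPM) and Pdha1 (76.4 TPM). That library also held the most macrophage markers (288 CPM) and erythroid markers (684 CPM) of its group, whose part in these values was not tested. Eno2 was highest in spNK 2 (0.777 TPM), where the share of Eno1 was lowest (99.8%), and Gpi1 was lowest in spNK 4 (226 TPM). Among the tuNK libraries, Slc16a3 was lowest in tuNK 3 (58.7 TPM), the share of Pfkl was lowest in tuNK 2 (34.55%) and the share of Pfkfb4 was lowest in tuNK 4 (25.8%). Pdk4 was above 0 in only 1 library of each group, at 0.0594 TPM (0.161% of its step) in spNK 2 and 0.0406 TPM (0.0926%) in tuNK 3.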

How the results depend on the processing

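Leaving out each library in turn gave 4754 to 5156 higher and 4549 to 4867 lower genes of all, 22 to 23 higher and 7 to 8 lower of the 35, 8 to 10 higher and 8 to 11 lower of the other pathway genes, 5 to 7 higher and 6 to 7 lower regulators, and 14 to 15 isoenzyme shares without overlap. Same-numbered libraries did not deviate together (r from -0.004 to 0.083), and with the replicate block 4926 genes of all were higher and 4629 lower, and 22 and 7 of the 35, and of the named genes only the call of Myc was lost. Leukocyte scaling, with and without spNK 3 and tuNK 1 (the latter chosen after seeing the data), gave 11033 and 10894 higher and 866 and 819 lower genes of all, 2 and 1 lower of the 35, 22 and 23 higher and 2 and 2 lower other pathway genes, and 16 and 16 higher and 0 and 0 lower regulators. Against a fold of 1.5 there were 3028 lower genes of all, 5 higher other pathway genes, and 2 higher and 3 lower regulators. On log2 TPM with either offset 6 other pathway genes and 3 regulators were higher, and with library size alone 5 regulators were higher. With library size alone the median over all genes was -0.147 (log2), with 4329 higher and 5510 lower, and with log2(TPM + 1) 3978 and 5484. The cause of these changes was not tested.

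Signs turned under leukocyte scaling, with the value without spNK 3 and tuNK 1 second, for Hk1 (1.19, 1.17), Hk3 (0.96, 1.42), Pfkp (0.86, 0.87), Pfkfb4 (1.60, 1.55), Taldo1 (0.93, 1.05), Bpgm (0.08, 0.13), Emb (0.69, 0.86), H6pd (1.47, 1.44), Rpia (0.95, 1.05), Rpe (1.44, 1.45), Prps2 (1.54, 1.61), Rbks (0.51, 0.71), Arnt (1.07, 1.07), Vhl (1.03, 1.00), Egln2 (1.41, 1.43), Hif1an (1.47, 1.60), Txnip (0.31, 0.32), Rptor (1.61, 1.53) and Nfe2l2 (1.65, 1.61), for Pfkfb2 with all libraries (0.95) and for Ldhb without those libraries (0.24). On log2(TPM + 1) and log2(TPM + 0.1), Pdha1 was at -0.01 and -0.01, Egln1 at -0.04 and -0.04, and Keap1 at -0.03 and -0.04. The share of Slc16a1 turned to 6.89 percentage points higher when the chaperone genes Bsg and Emb were counted in its step, and the macrophage marker difference ran from -0.66 to 0.21 when each library was left out, turning at 0.21 without spNK 3. Low counts limit Pdk4, Pfkfb1, Ldhb and Eno2.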

Other observations

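Of the 34 genes with values above 0 in all libraries, tuNK 3 was the lowest tuNK library for 25, beside 38.7% of the 12121 tested genes with such values. For 19 of the 34 tuNK 1 was the highest, a share close to the 54.6% of all those genes. The gene set's level in tuNK 3 (13500 TPM) was the lowest of the group, as were its levels of leukocyte markers (4970 CPM) and of mesenchymal markers (3610 CPM). The library with the highest level, tuNK 1 (15170 TPM), held the most mesenchymal markers (5500 CPM). Its leukocyte markers (5680 CPM) were below those of tuNK 2 (6690 CPM) and tuNK 4 (6160 CPM). In spNK, spNK 3 was the highest library for 16 of the 34, beside 28.1% of all. These patterns were noticed after the values were seen, and no test was made of them.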
